A study of Homo sapiens with 4 samples.

Results

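The ubiquitin-specific proteases (USPs) are the largest family of human deubiquitinases, the enzymes that cut the small protein ubiquitin off other proteins. A ubiquitin chain can send a protein to the proteasome, while a single ubiquitin can change how a histone or a receptor behaves, and a USP reverses either mark. Most USPs are cysteine proteases that share one catalytic fold, and they differ in the domains around it, which place them on chromatin, at the proteasome, on endosomes or in membranes. Here the transcripts of the USP genes were followed between the nucleus and the cytoplasm. The genes were chosen by name and biotype alone: protein-coding genes whose symbol is USP and a number, with X allowed after the number, leaving out USP9Y and the repeated USP17L copies. This gave 51 genes among the 51740 rows of the table, and 48 of them had an adjusted p-value and are called tested.

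The study asked where RNAs lie in the cell, to set against the RNAs bound by a nuclear and a cytoplasmic poly(A)-binding protein. HEK293T cells, an embryonic kidney line with the SV40 large T antigen, were of wildtype genotype, were crosslinked with formaldehyde and were then split into a nuclear and a cytoplasmic fraction. The labels give 4 libraries, 2 of the Nuclear and 2 of the Cytoplasmic fraction, as replicates of the same line and treatment. The study describes them as independent biological replicates. The kit took 400 ng of RNA per library and depleted it of ribosomal RNA, so a value is a share of the RNA in its fraction, and more copies of a transcript cannot be told apart from less of other RNA.

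The deposited table gives 1 mean and 1 fold change per gene. That mean carries 10 significant digits and is built from whole counts divided by a size factor per library. The size factors are not in the table and were estimated from it, first from genes with 1 count in 1 library and none in the others and then refined over 10025 genes. With them the count in each library could be rebuilt for 23204 of the 23333 tested genes (99.4%), among them the 48 tested USP genes, and for the 3 untested USP genes as well. The libraries held 22775568 and 19825522 of these counts in the nuclear and 16833734 and 15431989 in the cytoplasmic fraction, without the 56 most abundant tested genes, which were not rebuilt. They are called the deeper and the shallower library of a fraction, since the table does not show which replicate number each one has. USP genes took 0.623% and 0.648% of the nuclear counts and 0.542% and 0.547% of the cytoplasmic ones. In the authors' deposited table the check genes lay in the fraction they are known for, with log2 fold changes of -3.47 and -3.09 for the nuclear RNAs MALAT1 and NEAT1 and between 2.68 and 4.09 for RPLP0, RPS3, EEF1A1, GAPDH and ACTB. Nuclear noncoding RNAs, with the study's description, were also used to read the direction of the fold change, so the negative sign is not an independent check.

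The catalytic cysteine lies in a short conserved stretch of the USP fold, the cysteine box. A search of the coding frames for it matched once in 43 of the 50 USP genes with a canonical coding transcript in GENCODE 44. USP10, USP18, USP39, USP47, USP50, USP53 and USP54 had no match, which says only that the searched letters do not occur there, since some of these are known active enzymes. The sets below are related genes with similar bases at the catalytic site, picked because their transcripts did or did not lie in the same fraction. No fold change below uses these sequences, and a link between them and the fraction was not tested. Each stretch is coding DNA on hg38, read 5′ to 3′ on the gene's strand, with the cysteine codon in capitals.
USP22 (chr17:21018065-21018091, minus strand): cttgggaacacaTGCttcatgaactgc
USP27X (chrX:49880554-49880580, plus strand): cttggcaacacgTGCtttatgaactgc
USP51 (chrX:55487812-55487838, minus strand): cttgggaacactTGTtttatgaattgt
USP5 (chr12:6858550-6858576, plus strand): ctgggtaacagcTGCtacctcaactct
USP13 (chr3:179721522-179721548, plus strand): ctgggcaacagcTGCtatctcagctct
USP11 (chrX:47240841-47240867, plus strand): ctgggcaacacgTGCttcatgaactcg
USP15 (chr12:62355440-62355466, plus strand): ttgggaaatacgTGTttcatgaactca
USP28 (chr11:113840607-113840633, minus strand): gttggcaatacaTGTtggtttagtgct
USP25 (chr21:15791629-15791655, plus strand): gttggcaatactTGTtggtttagtgct
The capitals mark residue 185 of USP22, 335 of USP5, 275 of USP11 and 171 of USP28. USP28 and USP25 share 26 of the 27 bases, USP5 and USP13 share 24, USP22 and USP27X share 24, and USP11 and USP15 share 22. USP4, whose stretch is not shown, shares 24 with USP11.

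USP transcripts were spread over both fractions, with more genes on the nuclear side. Of the 48 tested USP genes, 12 were higher in the cytoplasmic fraction, 24 were higher in the nuclear fraction and 12 were not called. A call here is an adjusted p-value no larger than 0.01 in the authors' deposited DESeq2 fit. By the same rule 25.9% of all tested genes were higher in the cytoplasm and 26.5% in the nucleus, and 52.4% were called in either direction. Among tested protein-coding genes these shares were 35.6% and 28.4%. The median log2 fold change, cytoplasmic over nuclear, was -0.44 for the USP genes, 0.11 for protein-coding genes and -0.12 for all tested genes. Of the USP calls, 33.3% were cytoplasmic, against 49.5% of the calls among all tested genes and 55.6% among protein-coding genes. When both fractions were scaled to equal library totals, which lowers every log2 fold change by a constant, 6 USP genes were cytoplasmic and 32 nuclear. These were 12.5% and 66.7% of the tested USP genes, beside 16.2% and 38.3% of all tested genes and 22.4% and 42.6% of protein-coding genes. Of the USP calls on that scale, 15.8% were cytoplasmic. A limma fit to the rebuilt counts called 34 USP genes, or 70.8% of those tested. It called 61.4% of all genes it tested and 69.3% of the protein-coding ones, close to the USP share. Shares of calls therefore depend on the scale between the fractions, while the order of the genes does not.

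**Figure D1:**
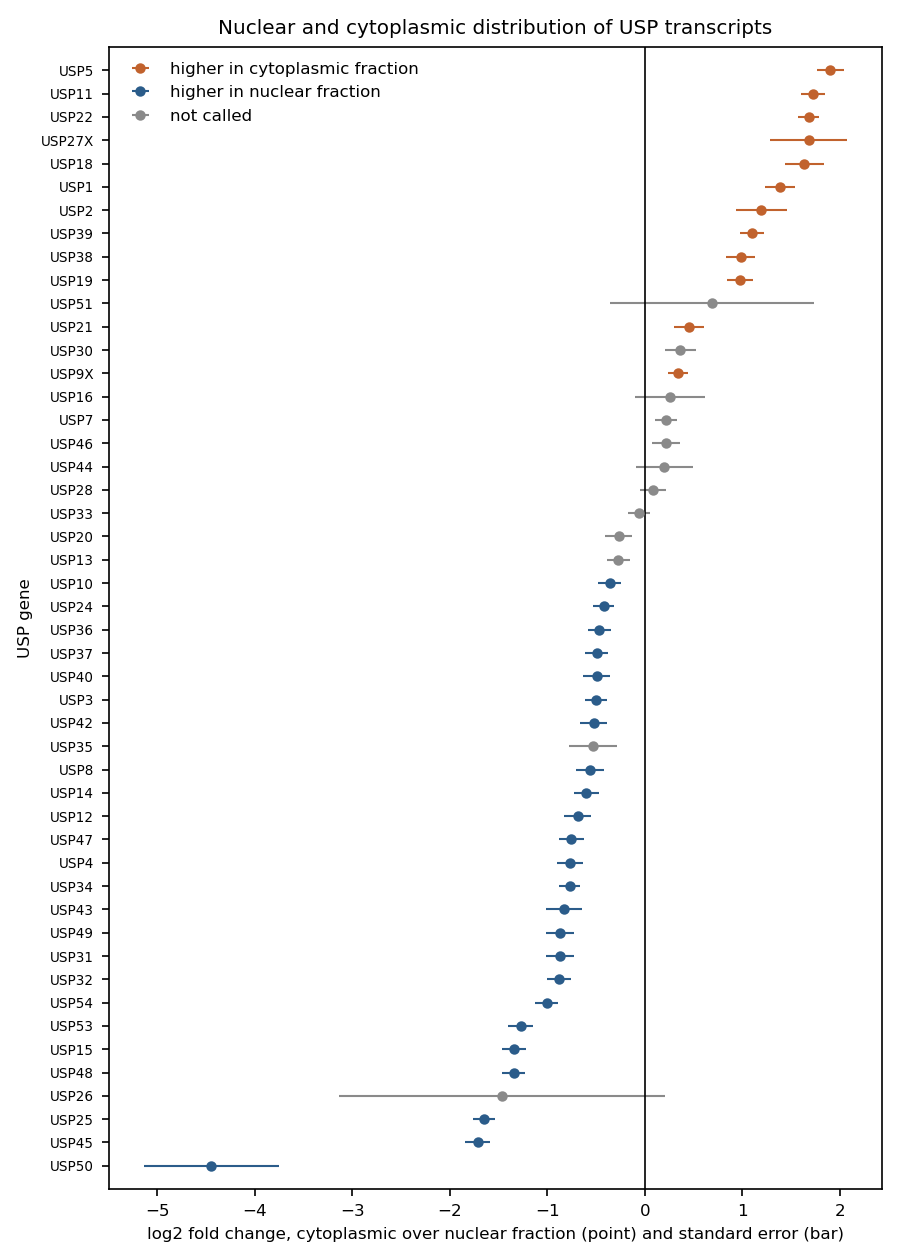
Log2 fold change, cytoplasmic over nuclear fraction, of the 48 tested USP genes with the DESeq2 standard error as a bar, both from the authors' deposited table, coloured by call. The points run from USP5 at 1.90 to USP50 at -4.45, with 12 called genes on the cytoplasmic and 24 on the nuclear side.

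The libraries of a fraction lay close together. For the 45 tested USP genes whose mean normalized count exceeded 50, the higher nuclear library was a median of 1.06-fold above the lower one, and the higher cytoplasmic library 1.10-fold. In 16 USP genes both cytoplasmic libraries lay above both nuclear ones, and in 29 both lay below, leaving 3 with overlap. Libraries did not overlap in 86% of all rebuilt tested genes, 40.4% with the cytoplasmic and 45.5% with the nuclear libraries higher, so that separation by itself is common here. All 36 called USP genes had separate libraries.

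The enzymes that clear ubiquitin chains differed from one another. USP5, which takes apart free ubiquitin chains, had the highest fold change of the family. Its normalized counts were 949 and 1133 in the deeper and shallower nuclear libraries and 3554 and 4229 in the deeper and shallower cytoplasmic ones, and this order of libraries is kept below. Both cytoplasmic libraries lay far above either nuclear library. The log2 fold change was 1.90 ± 0.14, where ± is the standard error of the DESeq2 fit over 2 libraries per fraction (DESeq2 adjusted p = 5.73e-43). Its paralog USP13 had 2586 and 2321 in the nucleus and 2005 and 2062 in the cytoplasm. The fractions did not overlap, but the log2 fold change of -0.27 ± 0.12 was not called (DESeq2 adjusted p = 0.041). Equal library totals put USP13 at -0.93, which was called nuclear. In GENCODE 44, 92.9% of the span of USP13 is shared with other genes, so much of it may have been left out of the authors' counting. USP14, which trims chains on the proteasome, had 1576 and 1691 against 1061 and 1093. It was higher in the nucleus, at -0.60 ± 0.13 (DESeq2 adjusted p = 7.31e-06).

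The deubiquitinases of the SAGA coactivator, which take ubiquitin off histone H2B, gave 2 cytoplasmic genes of 3, and 1 of 3 with equal library totals. USP22, the enzyme usually found in the complex, had 5499 and 6102 in the nuclear and 18389 and 18818 in the cytoplasmic libraries. Its log2 fold change was 1.68 ± 0.11 (DESeq2 adjusted p = 2.09e-56). USP27X can use the same adaptor proteins and is encoded in 1 exon of 3.08 kb on the X chromosome. It had 29.8 and 37.0 in the nucleus against 122 and 91.4 in the cytoplasm, a log2 fold change of 1.68 ± 0.39 (DESeq2 adjusted p = 4.75e-05). Scaled to equal library totals, USP27X lost its call (adjusted p = 0.0171 from the DESeq2 standard errors). USP51, the third enzyme of this kind, had only 6, 11, 13 and 5 counts in the 4 libraries, so that the fractions overlapped, and its log2 fold change of 0.69 ± 1.05 was not called.

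**Figure D2:**
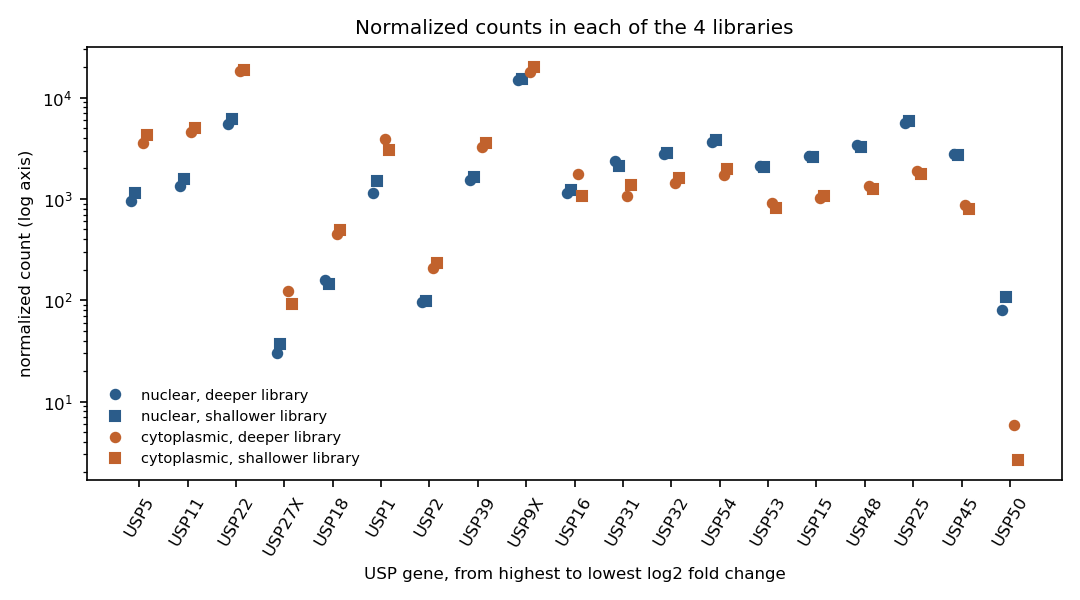
Normalized count in each of the 4 libraries (log axis) for the 8 called USP genes with the highest and the 8 with the lowest log2 fold change among those with a mean above 50, and for USP9X, USP16 and USP50. Circles are the deeper and squares the shallower library of each fraction, and in USP16 the cytoplasmic squares and circles, 1061 and 1778, lie on either side of the nuclear values.

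USP11, USP4 and USP15 have the same domain order, with a DUSP and a ubiquitin-like domain before the catalytic one, and their transcripts lay on opposite sides. USP11 had 1344 and 1557 in the nuclear against 4594 and 4988 in the cytoplasmic libraries, a log2 fold change of 1.72 ± 0.12 (DESeq2 adjusted p = 3.37e-44). USP4 had 1404 and 1408 against 813 and 843, and its log2 fold change was -0.76 ± 0.13 (DESeq2 adjusted p = 2.3e-08). USP15, which acts on receptors of the TGF-beta pathway, had 2648 and 2596 against 1012 and 1056. It was higher in the nucleus, at -1.34 ± 0.12 (DESeq2 adjusted p = 8.05e-28).

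USP1, USP12 and USP46 are switched on by the same partner, the WD-repeat protein WDR48. USP1, which acts on the DNA repair proteins FANCD2 and PCNA, had 1145 and 1496 in the nucleus against 3866 and 3055 in the cytoplasm. Its log2 fold change was 1.39 ± 0.15 (DESeq2 adjusted p = 1e-18). USP12 had 1610 and 1408 against 881 and 993 and was higher in the nucleus, at -0.69 ± 0.14 (DESeq2 adjusted p = 2.48e-06). USP46, closely related to USP12, had 1149 and 972 against 1171 and 1297, and its log2 fold change of 0.22 ± 0.14 was not called (DESeq2 adjusted p = 0.184), while with equal library totals it was at -0.44 and called nuclear. The mRNA of WDR48 itself was cytoplasmic at 1.02, and that of WDR20, which adds to the activation of USP12 and USP46, was nuclear at -1.81.

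Members listed as lacking peptidase activity held the lowest value of the family. Whether each gene of this list lacks activity was not examined. USP39, a part of the spliceosome, was the exception in direction. It had 1550 and 1643 in the nuclear against 3244 and 3601 in the cytoplasmic libraries, a log2 fold change of 1.10 ± 0.12 (DESeq2 adjusted p = 1.23e-19). USP53 had 2093 and 2069 against 905 and 816 and was at -1.27 ± 0.13 (DESeq2 adjusted p = 2.79e-22). USP54 had 3673 and 3785 against 1728 and 1989 and was at -1.01 ± 0.12 (DESeq2 adjusted p = 2.59e-16). Both were higher in the nucleus in every library.

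USP50 stood far below the rest of the family. It had 108 and 129 counts in the nuclear libraries and 5 and 2 in the cytoplasmic ones. From these counts, nuclear over cytoplasmic was 21.5-fold, with an exact 95% interval of 10.3 to 54.1 for counting error alone. Its log2 fold change was -4.45 ± 0.69 (DESeq2 adjusted p = 4.08e-10). USP50 (chr15:50494018-50546708, minus strand) shares 38.7% of its span with the end of USP8, which runs on the opposite strand. The shared part covers 63.7% of the exonic bases of USP50. USP8 was itself nuclear but far less so, at -0.56. The authors removed stretches covered by more than 1 gene before counting. The paper also describes transcripts that run on from an upstream gene into the next one. Whether the reads of USP50 include any of these was not tested.

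USP18 removes the ubiquitin-like protein ISG15 and limits interferon signalling. It had 158 and 145 in the nuclear against 449 and 497 in the cytoplasmic libraries, a log2 fold change of 1.64 ± 0.20 (DESeq2 adjusted p = 2.37e-15). USP41, a near copy of USP18 that GENCODE 44 lists as a transcribed unprocessed pseudogene, had 3, 2, 2 and 0 counts and was not tested. Reads that fit both copies may be missing or divided, so the level of either is uncertain.

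Of the membrane-anchored pair, USP19 of the endoplasmic reticulum was cytoplasmic and USP30 of the outer mitochondrial membrane was not called. USP19 had 1473 and 1672 against 2847 and 3343, a log2 fold change of 0.98 ± 0.13 (DESeq2 adjusted p = 2.83e-13). USP30 had 528 and 499 against 695 and 628, at 0.37 ± 0.16 (DESeq2 adjusted p = 0.0378). Scaled to equal library totals, USP19 was at 0.31 and lost its call (adjusted p = 0.0272 from the DESeq2 standard errors).

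The 9 enzymes of chromatin, the cell cycle and DNA repair gave 1 cytoplasmic gene, 4 nuclear genes and 4 that were not called. USP21, a histone H2A deubiquitinase, had 503 and 554 against 719 and 728, and was cytoplasmic at 0.45 ± 0.16 (DESeq2 adjusted p = 0.00714), but at -0.21 and not called with equal library totals. USP3 was nuclear at -0.50, USP36 of the nucleolus at -0.46, USP37, which acts on cyclin A, at -0.49 and USP49, which acts on histone H2B, at -0.87. Of their spans, 55.9% of USP3 and 97.1% of USP49 are shared with other genes in GENCODE 44. Of their exonic bases, 80.5% and 71.6% are shared, and these stretches may have been left out of the counting. USP7, the deubiquitinase of MDM2 and p53, had 2779 and 2809 against 3340 and 3163. Its log2 fold change of 0.22 ± 0.11 was not called (DESeq2 adjusted p = 0.0775), and neither were USP28 at 0.09 and USP44 at 0.20. On the scale of equal totals USP7 at -0.44 and USP28 at -0.58 were called nuclear.

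USP16, which also acts on histone H2A, was the member with the widest gap between cytoplasmic replicates among those with a mean above 50. It had 1135 and 1232 in the nuclear libraries but 1778 in the deeper and 1061 in the shallower cytoplasmic library, a 1.67-fold gap. A gap this wide between the cytoplasmic libraries occurred in 1.10% of protein-coding genes above a mean of 50. The log2 fold change was 0.26 ± 0.36 and was not called (DESeq2 adjusted p = 0.551). Without the shallower cytoplasmic library a limma fit to the rebuilt counts gave 0.59 (limma adjusted p = 2.44e-05), and without the deeper one it gave -0.16 (limma adjusted p = 0.302). The direction of USP16 therefore rests on which cytoplasmic library is used.

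The enzymes of endosomes and receptor recycling were nuclear or not called. USP8, which works on receptors at endosomes, had 1414 and 1480 in the nuclear against 1071 and 887 in the cytoplasmic libraries, at -0.56 ± 0.14 (DESeq2 adjusted p = 0.000156). Other genes in GENCODE 44 cover 79.4% of the exonic bases of USP8, so much of its exons may have been left out of the authors' counting. USP10, a partner of the stress granule protein G3BP1, had 4012 and 3847 against 2803 and 3320, at -0.36 ± 0.12 (DESeq2 adjusted p = 0.00573), and limma on the rebuilt counts narrowly missed it (limma adjusted p = 0.0103). USP20 and USP33, which both act on the beta-2 adrenergic receptor, were at -0.27 and -0.06 and were not called. In USP33 the nuclear libraries had 2436 and 2439 and the cytoplasmic ones 2365 and 2320, so that the fractions lay close together on this scale. On the scale of equal totals USP33 was at -0.72 and USP20 at -0.93, and both were called nuclear.

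Among the members with very large proteins, USP9X was cytoplasmic and the other two were nuclear. USP9X, which protects the survival factor MCL1, had 14858 and 15372 in the nuclear against 18040 and 20201 in the cytoplasmic libraries. Its log2 fold change was 0.34 ± 0.11 (DESeq2 adjusted p = 0.00267). With equal library totals its log2 fold change was -0.32 and it was called nuclear, so its direction depends on the scale, and limma on the rebuilt counts did not call it (limma adjusted p = 0.0219). USP24 had 6410 and 6731 against 4826 and 4976 and was at -0.42 ± 0.10 (DESeq2 adjusted p = 0.000127). USP34, a regulator of axin in Wnt signalling, had 8270 and 8534 against 4755 and 5102 and was at -0.77 ± 0.11 (DESeq2 adjusted p = 9.37e-13).

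The 13 members in no role list were mostly nuclear, with 2 cytoplasmic and 9 nuclear genes among the 12 tested. USP45, a deubiquitinase of the repair protein ERCC1, had 2789 and 2690 in the nuclear against 870 and 799 in the cytoplasmic libraries, the lowest fold change after USP50, at -1.71 ± 0.12 (DESeq2 adjusted p = 6.22e-42). USP25 had 5578 and 5864 against 1874 and 1777, at -1.65 ± 0.11 (DESeq2 adjusted p = 7.09e-49). USP48 had 3366 and 3240 against 1352 and 1250, at -1.34 ± 0.12 (DESeq2 adjusted p = 5.48e-29). In all of these both nuclear libraries lay far above both cytoplasmic ones.

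USP32 and USP31 were nuclear to a smaller extent. USP32 had 2776 and 2811 against 1445 and 1596, at -0.88 ± 0.12 (DESeq2 adjusted p = 8.52e-13), and USP31 had 2350 and 2121 against 1073 and 1373, at -0.87 ± 0.14 (DESeq2 adjusted p = 4.4e-09). USP6, which arose from USP32 and shares its sequence, had 1, 2, 0 and 1 counts and was not tested. The nuclear genes USP43, USP47, USP42 and USP40 ranged from -0.83 to -0.49. USP35 at -0.53 missed the threshold, with 285 and 214 against 176 and 170 (DESeq2 adjusted p = 0.0516), and was called nuclear with equal library totals, at -1.19.

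The cytoplasmic members outside the role lists were USP2 and USP38. USP2, an enzyme of the MDM2 and cyclin D1 pathways, had 96.2 and 97.5 against 209 and 235, at 1.19 ± 0.26 (DESeq2 adjusted p = 1.23e-05). Since 95.3% of the span of USP2 is shared with an antisense gene, USP2-AS1, in GENCODE 44, most of it may have been left out of the authors' counting. USP38 had 620 and 713 against 1214 and 1425, at 0.99 ± 0.15 (DESeq2 adjusted p = 1.58e-10). With equal library totals USP2 was at 0.53 and USP38 at 0.32, and neither was called (adjusted p = 0.0661 and 0.0504 from the DESeq2 standard errors). The testis genes USP26 and USP29 were barely detected, with 8, 5, 2 and 1 counts and 0, 1, 0 and 0 counts, and neither was called. For USP26 nuclear over cytoplasmic was 2.75-fold with an exact 95% counting interval of 0.757 to 15.1.

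Related genes could be compared within each library, where the scale between the fractions cancels. The log2 ratio of the counts of one gene over the other was taken in each of the 4 libraries for 14 pairs of related USP genes. In 12 pairs both cytoplasmic libraries lay on the same side of both nuclear ones. The same held for 92.7% of all pairs of rebuilt tested genes with a mean above 50, so separation says nothing particular about related USP genes. The widest difference was USP11 over USP15, at -0.98 and -0.74 in the nuclear and 2.18 and 2.24 in the cytoplasmic libraries. The difference between their log2 fold changes was 3.07, with a combined standard error of 0.17 if the errors of both genes are taken as independent. USP5 over USP13 went from -1.45 and -1.03 to 0.83 and 1.04. USP28 over USP25, with the nearly identical cysteine boxes shown above, went from -1.996 and -2.17 to -0.46 and -0.24. USP16 over USP45 went from -1.30 and -1.13 to 1.03 and 0.41, in spite of the gap between the cytoplasmic libraries of USP16.

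Other pairs overlapped or lay close. USP22 over USP27X was 7.53 and 7.37 in the nuclear and 7.24 and 7.69 in the cytoplasmic libraries, and USP43 over USP31 was -2.05 and -2.16 against -1.89 and -2.20, so that in both the fractions overlapped. USP36 over USP42 differed by only 0.06 between their log2 fold changes, with a combined standard error of 0.19. With 2 libraries a fraction, an exact permutation test of 1 ratio cannot reach the threshold, and none was run.

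**Figure D3:**
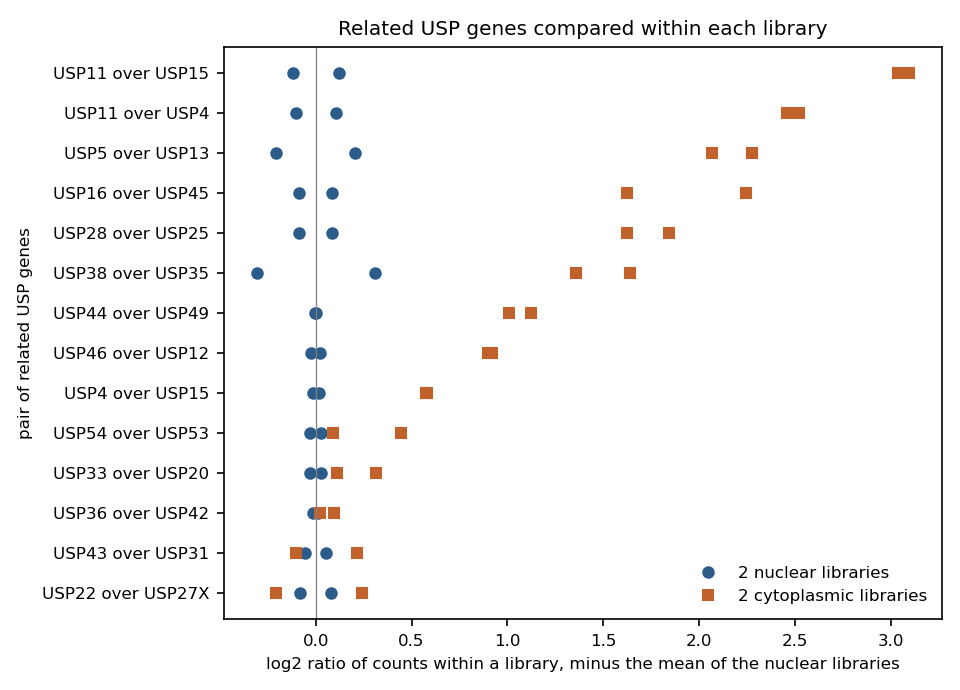
Log2 ratio of the counts of 2 related USP genes within each library, after subtracting the mean of the nuclear libraries, for 14 pairs ordered by the difference of their log2 fold changes. Circles are nuclear and squares cytoplasmic libraries, and the pairs at the top, such as USP11 over USP15 with a difference of 3.07, lie far apart while USP22 over USP27X and USP43 over USP31 overlap.

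Fold change went with the length of the gene. USP genes called cytoplasmic had spans of 3.08 to 151 kb with a median of 21.0 kb, and those called nuclear had spans of 52.7 to 284 kb with a median of 90.7 kb. Of the 16 tested members shorter than 50 kb, 11 were cytoplasmic, 5 were not called and none was nuclear. Of the 32 longer ones, 24 were nuclear, 7 were not called and only USP9X was cytoplasmic. The limit of 50 kb was chosen after the values were seen. Among all tested protein-coding genes, 51.0% of those under 50 kb were cytoplasmic and 11.7% nuclear, and of the longer genes 11.8% were cytoplasmic and 54.0% nuclear. Spearman's correlation of span with log2 fold change was -0.67 across the 48 USP genes and -0.60 across 15329 protein-coding genes, as a description, since all genes share the same libraries and long genes hold more intron. Reads in introns were counted, and their part in these values was not tested. With exonic length in place of span the correlation across USP genes was -0.50.

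Set beside protein-coding genes of like span, the family lay in the middle. Protein-coding genes whose mean normalized count exceeded 50 were divided by span into 10 bins of equal size, whose median log2 fold change went from 2.24 in the shortest bin to -2.03 in the longest. Of the 45 USP genes that could be placed, 22 were above and 22 below the median of their bin, and USP3 was itself the median. The genes farthest above were USP22 by 1.47, USP34 by 1.26, USP9X by 1.24 and USP18 by 1.23. USP34 and USP32 were placed in the longest bin, which runs from 191 to 2305 kb, and their spans of 284 and 245 kb lie near its short end. Their log2 fold changes of -0.77 and -0.88 were close to the median of -0.90 in the next shorter bin. The farthest below were USP21 at -1.79, USP35 at -1.23 and USP45 at -1.21, so that USP21, although called cytoplasmic, was low for a gene of 6.27 kb.

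**Figure D4:**
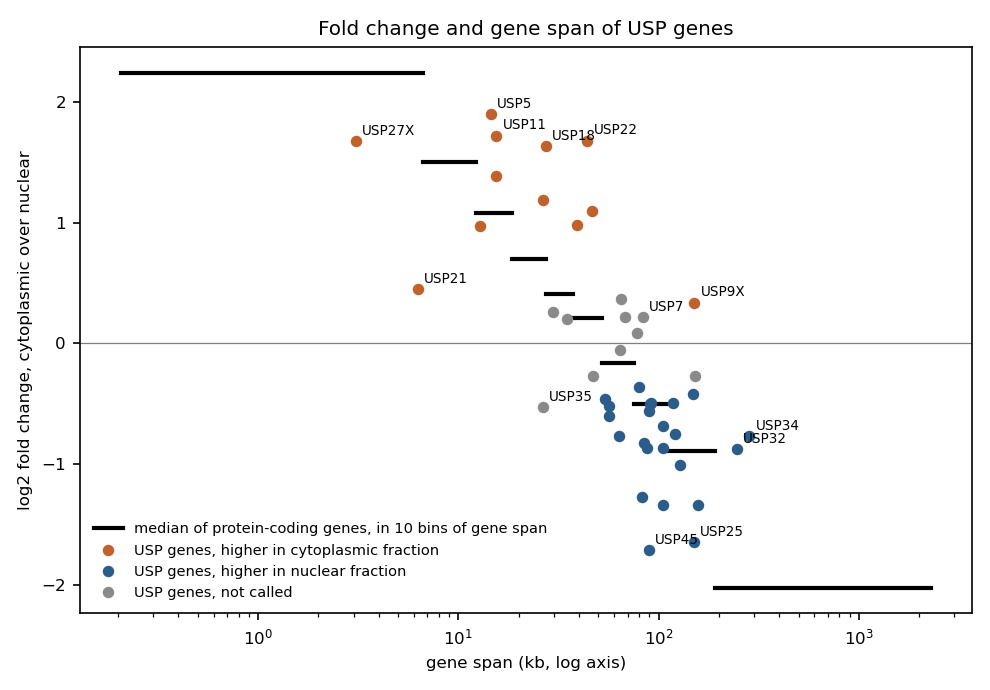
Log2 fold change, cytoplasmic over nuclear, against gene span (log axis) for the 45 USP genes whose mean normalized count exceeded 50, and black bars for the median of protein-coding genes in each of 10 bins of span. Members fall along the bars, 22 above and 22 below, with USP22 and USP9X well above and USP21 and USP35 well below.

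The genes listed under other deubiquitinase families, by fold and not by shown activity, gave a different balance. Of the 41 listed, 39 were tested, and 19 were cytoplasmic, 13 nuclear and 7 not called, with a median log2 fold change of 0.39. Of all tested genes 25.9% were cytoplasmic and 26.5% nuclear, and of protein-coding genes 35.6% and 28.4%. With equal library totals 11 of the listed genes were cytoplasmic and 18 nuclear. On that scale the shares were 16.2% and 38.3% of all tested genes and 22.4% and 42.6% of protein-coding genes. The listed genes were also shorter, with a median span of 38.7 kb against 71.1 kb for the USP genes. Of the 25 under 50 kb, 17 were cytoplasmic and 4 nuclear, and of the 14 longer ones 2 were cytoplasmic and 9 nuclear. The difference between the families was not tested. The genes listed under JAMM ran from EIF3F, a translation initiation factor subunit, at 3.15 down to the histone H2A deubiquitinase MYSM1 at -1.65. Of these genes 6 were cytoplasmic, among them COPS6 at 2.57, PSMD7 at 1.85 and EIF3H at 0.57, and 4 were nuclear. Whether each listed gene encodes an active enzyme was not examined. Among the UCH enzymes, UCHL1 was at 2.03 and BAP1, a tumour suppressor acting on histone H2A, at 1.61. UCHL5 of the proteasome was nuclear at -0.83 and UCHL3 at -0.77. The OTU enzymes held 7 cytoplasmic genes such as OTUB1 at 1.69 and 2 nuclear ones, OTUD4 at -0.49 and OTUD7A at -2.68. Of the 3 proteins with a USP-like fold but another name, USPL1 and PAN2 were nuclear at -0.90 and -0.54 and CYLD at 0.38 was not called.

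**Figure D5:**
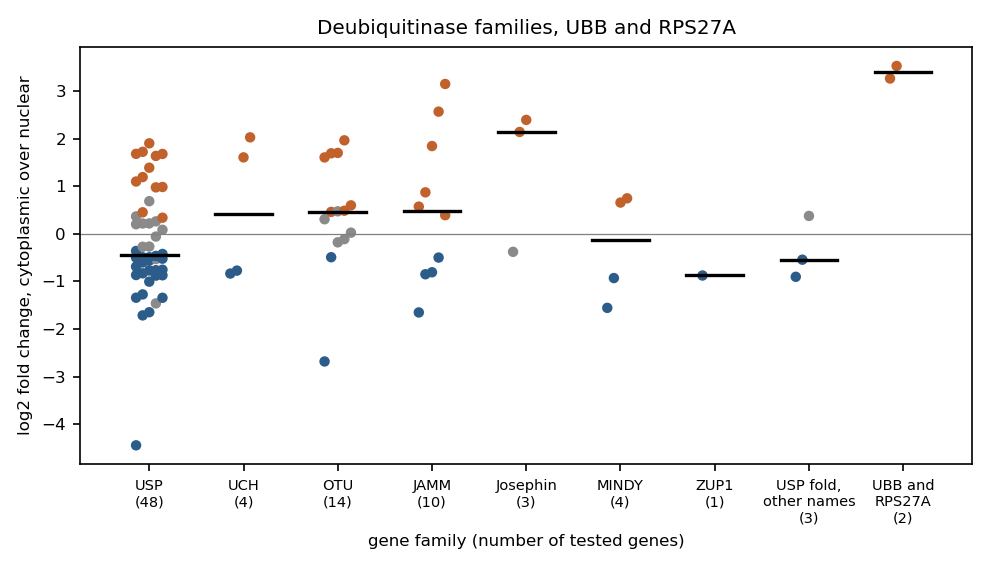
Log2 fold change, cytoplasmic over nuclear, of each tested gene by deubiquitinase family and for UBB and RPS27A, with the number of genes under each name and a black bar at the median. Orange genes were called cytoplasmic, blue nuclear and grey were not called, and the 48 USP genes have a median of -0.44 while UBB and RPS27A lie at 3.27 and 3.53.

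Partners of the USP enzymes were on both sides, with 8 cytoplasmic and 4 nuclear among the 12 genes reported. Beside them, 25.9% of all tested genes were cytoplasmic and 26.5% nuclear, and 35.6% and 28.4% of protein-coding genes. A list of 12 chosen genes is too short to set a share against these. UBB and RPS27A, which encode ubiquitin, were cytoplasmic with log2 fold changes of 3.27 and 3.53. Of the adaptors that hold USP22 in its module, ATXN7L3 was at 2.14 and ENY2 at 1.27, both cytoplasmic like USP22, and ATXN7 was nuclear at -1.60. The USP10 partner G3BP1 was cytoplasmic at 0.85, the USP7 partner GMPS at 0.80 and SART3, which recruits USP4 and USP15, at 0.50. None of these 3 was called with equal library totals, with G3BP1 at 0.19, GMPS at 0.13 and SART3 at -0.16. On that scale 5 of the partners were cytoplasmic, beside 16.2% of all tested genes and 22.4% of protein-coding genes. The USP8 partners STAM and STAM2 were nuclear at -0.42 and -0.57, on the same side as USP8.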

How the data were processed

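Nuclear and cytoplasmic RNA of crosslinked HEK293T cells was sequenced in 4 libraries, 2 per fraction, from independent biological replicates as the study describes them. The authors aligned reads of 100 nt to hg38 with STAR and counted them with featureCounts 2.0.2 (a minimum overlap of 20 bases) over exons and introns of a GENCODE 34-derived annotation, after removing stretches shared by genes. Whether strand was used in counting is not given in the sources used here. The deposited table holds, per gene, a mean normalized count over all libraries (a signal), a log2 fold change of cytoplasmic over nuclear with its standard error on the log2 scale, the Wald score, and the p-value and adjusted p-value, all from the authors' DESeq2 fit. These columns are the authors' own comparison, and calls use their adjusted p-value of at most 0.01.

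Whole counts per library were rebuilt by searching all combinations that gave the mean at 10 digits and, above a mean of 30, the fold change of the authors' fit, recomputed from the counts. Exactly 1 combination was found for all 46 USP genes above that mean. For 5013 tested genes whose counts followed from the mean alone, the fold change matched in 5013. The search was tested on simulated data. limma 3.58.1 in R 4.3.3 was fitted to log2 of the count plus 0.5, divided by the size factor. Size factors, estimated from the table, were 1.34 and 1.19 (nuclear) and 0.853 and 0.755 (cytoplasmic). Spans, exons and sequences came from GENCODE 44 on hg38. Other genes there also covered 72.3% of the exonic bases of USP2, 64.0% of USP13 and 51.6% of USP54. The share was 41.4% for USP47, 39.6% for USP22 and 32.8% for USP37, and such stretches may have been left out of the counting. Intervals cover counting error only.

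Named were the 8 called USP genes with the highest and the 8 with the lowest fold change among those with a mean over 50, and every tested gene of the role lists, with others given by their values after these were seen. The members and lists were chosen with earlier results of these data known. Some genes first listed as partners are not reported here and were left out of the counts, without regard to their values.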

Additional observations from a re-analysis of the deposited data

How the results depend on the processing

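The fold changes compare shares of RNA, so the scale between fractions sets each direction. With equal library totals the 12 cytoplasmic USP calls became 6 (7 in the limma fit with equal totals, added after seeing the data), the median log2 fold change of tested USP genes went from -0.44 to -1.11, and the 19 cytoplasmic calls among other deubiquitinases became 11 and the 8 among partners 5. The sign turned for USP21 (-0.21), USP30 (-0.30), USP9X (-0.32), USP16 (-0.40), USP7 (-0.44), USP46 (-0.44), USP44 (-0.46) and USP28 (-0.58), and, when centred on the protein-coding median, for USP28 (-0.026). With equal library totals USP9X, USP7, USP46 and USP28 were then called nuclear, and nuclear calls were also gained for USP33, USP20, USP13 and USP35. This follows from lowering every value by 0.66 or 0.11. Under a Bonferroni rule over every gene with a p-value, nuclear calls fell from 24 to 13 among USP genes and from 4 to 2 among partners, as a stricter threshold must. The Spearman correlation of fold change with length was -0.50 with exonic length against -0.67 with span, and the cause was not tested. Without a filter, with a mean over 50, or with an absolute log2 fold change over 0.5, counts stayed within 1.5 times. limma on the rebuilt counts called 11 cytoplasmic and 23 nuclear USP genes, and 34 calls were shared with the deposited ones, without USP9X and USP10. Leaving out 1 library in turn, with the lone library assumed to vary like the others, gave 10 to 13 cytoplasmic and 23 to 24 nuclear calls. USP21 was lost without the deeper nuclear library (limma adjusted p = 0.0201) and USP24 without the shallower nuclear one (limma adjusted p = 0.0234). Calls were gained for USP35 without the shallower nuclear (limma adjusted p = 0.00133) or the deeper cytoplasmic library (limma adjusted p = 0.00454), for USP9X without the deeper cytoplasmic one (limma adjusted p = 0.00145), and for USP10, USP16 and USP30 without the shallower cytoplasmic one (limma adjusted p = 0.000253, 2.44e-05 and 0.00517). With a tolerance 10 times wider, 45 of 46 USP genes kept a single combination of counts and USP9X had several.

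The table does not show which replicate number each library has, so a limma fit with a replicate block was made under each of the 2 possible pairings. It gave 10 cytoplasmic and 17 nuclear USP calls with the deeper libraries paired with each other, and 12 and 25 with each deeper one paired with a shallower one. edgeR and DESeq2 on the rebuilt counts were not run. Genes with few counts had wide counting intervals, such as 0.81 to 3.44 for cytoplasmic over nuclear in USP51.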
